A study of Mus musculus with 11 samples.

Results

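Cd63, Cd200 and 8 further tetraspanin genes (Cd9, Cd81, Cd82, Cd151, Cd37, Cd53, Tspan3 and Tspan4) were followed by symbol through a table of 20640 genes measured by bulk RNA-seq in mouse limb muscle stem cells, and all 10 were found there. The 11 libraries were made from YFP+ cells of Pax7-CreERT2;Rosa-YFP mice, in which tamoxifen (240 mg/kg on 5 days, begun in all mice at an age of 12 to 14 weeks) switches on a permanent fluorescent label in cells that express Pax7 at that time. Cells carrying Sca-1, CD31 or CD45 were removed in the sort. Middle-aged cells (3 libraries) came from mice of 10 to 14 months by the sample labels and 12 to 14 months by the protocol, and their titles name no VCAM1 gate. Geriatric cells, from mice over 28 months old, were gated on surface VCAM1, a conventional marker of these cells: 3 libraries are VCAM1-high, 2 are VCAM1-low and 3 are VCAM1-negative. These gate names are those of the sample titles, whereas the design text speaks of a mid gate and a low or negative gate, and how the names correspond is not stated. Comparisons of geriatric with middle-aged libraries therefore change age, gating and time since labelling together, and these cannot be told apart. The label follows any descendant of a cell that once expressed Pax7, so it does not by itself mark a stem cell at the time of the sort. Whether replicates come from separate animals is not stated, and the p-values may therefore reflect technical spread alone.

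Tetraspanins are small membrane proteins that cross the membrane repeatedly and gather integrins, immunoglobulin proteins and proteases into membrane microdomains. CD63 cycles between the cell surface, late endosomes and lysosomes and is a widely used marker of exosomes, and CD9 and CD81 are the other common vesicle tetraspanins. In muscle, CD9 and CD81 are known for controlling the fusion of muscle cells. CD200 is not a tetraspanin but an immunoglobulin-family surface protein, which restrains myeloid cells that carry its receptor. The series title names CD63 and CD200 as markers, and they may have been chosen on these libraries, so their levels are not independent evidence about them.

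The large outer loop of a tetraspanin carries a conserved Cys-Cys-Gly motif, which was searched in the reading frames of the principal GENCODE vM21 transcripts. It is shown because it is what sets the 9 tetraspanins apart from Cd200, whose 278 codons hold none. Capitals mark the motif's codons, each with 9 bases of coding sequence on either side, and where a frame holds more than 1 copy the one nearest codon 150 is printed.
Cd63: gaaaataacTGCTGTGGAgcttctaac
Cd9: gcgttggacTGCTGTGGCatagctggt
Cd81: acgctcaacTGTTGTGGCtccaacgca
Cd82: caggtcaagTGCTGTGGCtgggtcagc
Cd151: gagttccacTGTTGTGGCagcaacaac
Cd37: cagctgcgcTGCTGCGGCtggcaatct
Cd53: caactgcagTGTTGTGGTgtaaatggc
Tspan3: cagttgcacTGTTGTGGAattcataac
Tspan4: gatttccgaTGCTGTGGAgtttccaat
The end of the Cd63 coding sequence is shown because it encodes, in capitals, the tyrosine-based signal that sends the protein to lysosomes, followed by the stop codon.
Cd63 end: agtattcgaagtGGCTATGAAGTAATGtag

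Cd63 was among the most abundant transcripts of these cells. Levels are given in RPKM (reads scaled to gene length and library size), which allows genes to be compared per length. Its mean over 11 libraries was 2097 RPKM, at rank 15 of 20640 genes, and it ranked between 5 and 27 in single libraries. Cd82 (mean 830 RPKM), a tetraspanin known to restrain integrin-dependent migration, stood next, followed by Cd9 (543 RPKM) and Cd81 (420 RPKM). Cd200 (224 RPKM), Tspan3 (155 RPKM) and Tspan4 (126 RPKM), a tetraspanin of the retraction fibres and migrasomes of moving cells, formed a middle tier. Cd151, a partner of laminin-binding integrins, was far lower (7.33 RPKM), and the leukocyte tetraspanins Cd53 (1.72 RPKM) and Cd37 (0.548 RPKM) were lowest.

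The order of the abundant members was stable from library to library. Cd63 exceeded Cd82, Cd82 exceeded Cd9 and Cd81 exceeded Cd200 in 11 of 11 libraries, and Cd9 exceeded Cd81 in 10. Cd200 exceeded Tspan3 in 8 libraries and Tspan3 exceeded Tspan4 in 8, so these neighbours did not separate beyond the spread between libraries. As a share of the RPKM of the 9 tetraspanins, Cd63 held 42.2% to 57.3%, Cd82 14.5% to 24.7% and Cd9 11.7% to 14.6%. The 9 together held 0.783% to 1.28% of a library's RPKM.

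**Figure D1:**
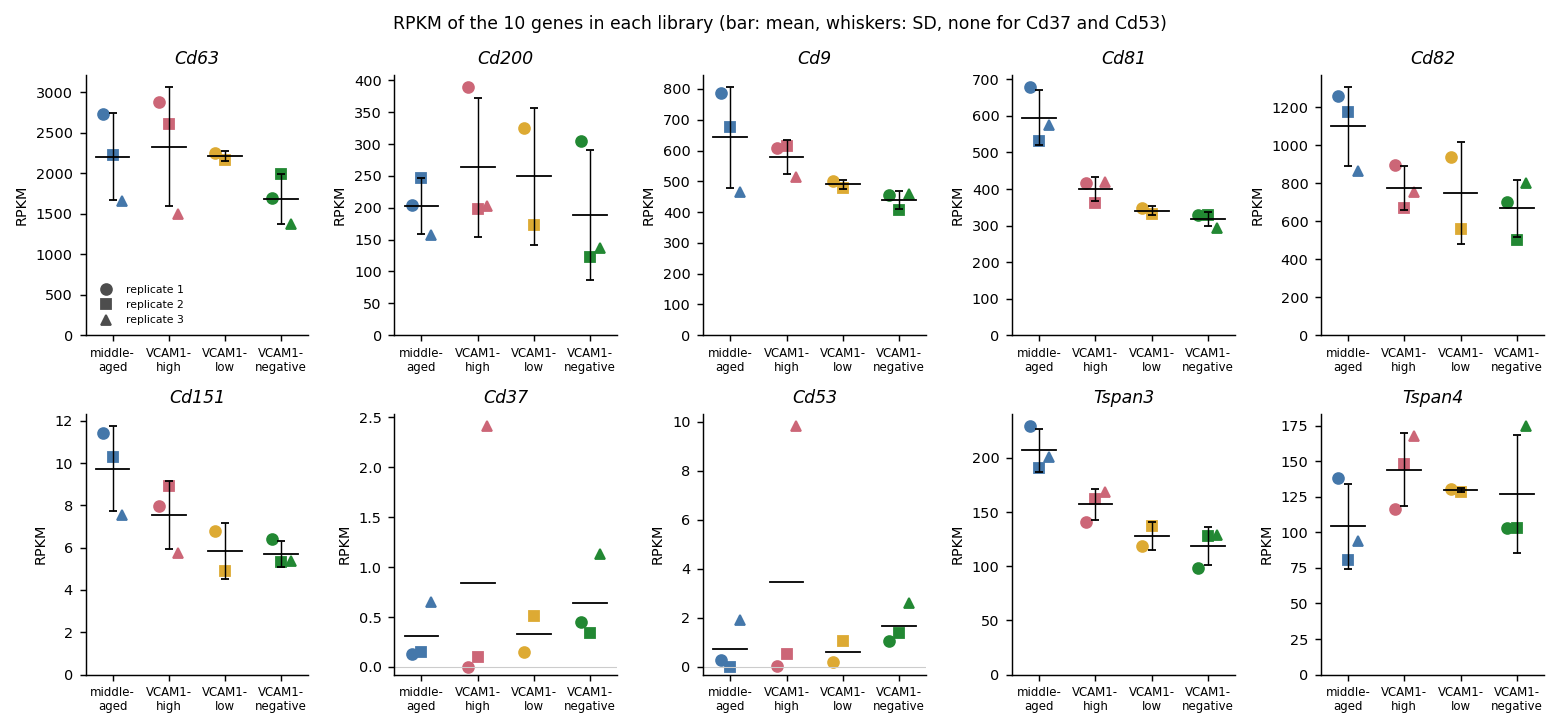
RPKM of each of the 10 genes in each of 11 libraries, one panel per gene with its own linear axis; points are libraries with a shape for each replicate number, bars group means and whiskers SD (none drawn for Cd37 and Cd53). Cd81 and Tspan3 are lower in all 8 geriatric libraries than in all 3 middle-aged ones, while Cd63 and Cd200 overlap between middle-aged and each geriatric gate.

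Libraries with the same replicate number moved together across the geriatric gates. Deviations from the group means correlated at 0.403 to 0.581 over genes in all 7 same-number pairs, and at 0.0940 or less in the 14 pairs with different numbers. Because deviations within a group cancel out, high values in same-number pairs lower those of the other pairs. The latter are therefore not separate evidence of pairing. The number-3 libraries also carried more leukocyte transcripts: the summed RPKM of 18 macrophage and leukocyte markers was 188, 1119 and 296 in the number-3 libraries of the middle-aged, VCAM1-high and VCAM1-negative groups and 25.4 to 146 in the other 8. This did not hold for every cell type, since VCAM1-negative replicate 3 had the lowest endothelial (48.8 RPKM), Schwann cell (4.02 RPKM) and erythroid (194 RPKM) sums of its group. Vcam1 itself ran from 230 to 344 RPKM at middle age and from 188 to 418 RPKM in the VCAM1-high gate. It was 177 and 115 RPKM in the VCAM1-low libraries and ran from 48.6 to 122 RPKM in VCAM1-negative ones, overlapping between these lower gates. Pax7, the labelling gene, was 1.71 to 7.85 RPKM in the 11 libraries. Depth, estimated from the steps of low values, was 20.0 to 29.9 Mreads (mega-reads) per library, at which 3 reads of a 1 kb gene amount to 0.150 RPKM.

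Cd63 did not separate VCAM1-negative cells from VCAM1-high cells beyond the spread between libraries. It stood at 2881, 2610 and 1490 RPKM in VCAM1-high replicates 1 to 3, at 2252 and 2167 RPKM in VCAM1-low replicates 1 and 2, and at 1692, 1988 and 1373 RPKM in VCAM1-negative replicates 1 to 3. The VCAM1-high and VCAM1-negative ranges overlap, and the number-3 library was the lowest of each. The log2 difference of VCAM1-negative minus VCAM1-high was -0.43 ± 0.27 (SE; 95% interval -1.02 to 0.17), with limma adjusted p = 0.850 over 11568 genes. Within replicate numbers 1, 2 and 3, VCAM1-negative cells held 58.7%, 76.2% and 92.1% of the VCAM1-high level. Of all genes tested, 30.6% were lower in VCAM1-negative cells within each number.

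Cd200 followed a similar gradient within numbers, on a larger spread between them. It stood at 390, 198 and 203 RPKM in VCAM1-high replicates 1 to 3, at 326 and 173 RPKM in VCAM1-low replicates 1 and 2, and at 305, 122 and 138 RPKM in VCAM1-negative replicates 1 to 3. The number-1 library was the highest of each geriatric gate, and the gates overlap. VCAM1-negative cells held 78.4%, 61.6% and 67.9% of the VCAM1-high level within numbers 1 to 3. A fall within each number was likewise found for 30.6% of all genes tested. The log2 difference was -0.53 ± 0.39 (SE; 95% interval -1.39 to 0.33; limma adjusted p = 0.860).

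Taking replicate number as a block changed the call for Cd200 in 1 of 2 blocked fits. Among the 8 geriatric libraries its difference kept the value of -0.53, with SE 0.11 and limma adjusted p = 0.0459, while 4.42% of all genes were called in that fit, 3.43% as lower. With the block fitted in all 11 libraries the limma adjusted p was 0.380, and 0.562% of all genes were called. The call in the geriatric fit ended in 6 of 8 omissions of a single library. Limma adjusted p was then 0.111, 0.178 and 0.0504 without VCAM1-high replicates 1, 2 and 3, 0.105 and 0.104 without VCAM1-low replicates 1 and 2, and 0.176 without VCAM1-negative replicate 2. No other member was called in that fit, where Tspan3 was at limma adjusted p = 0.0583, Cd9 at 0.0975 and Cd63 at 0.136.

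Most members had lower fitted levels in VCAM1-negative than in VCAM1-high cells, and none passed the test without the block. The call rate over all genes was 0% in this comparison, with 755 genes (6.53%) at an unadjusted p under 0.05, among the members Tspan3 alone. The log2 difference was negative for 8 of 10 members (60.8% of all genes), with a median of -0.33 against -0.07 over all genes. For 3 members, Cd9, Cd81 and Tspan3, every VCAM1-negative library was below every VCAM1-high library, as was the case for 8.08% of all genes.

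Cd9, the fusion-controlling partner of Cd81, stood at 608, 614 and 515 RPKM in VCAM1-high, 501 and 479 RPKM in VCAM1-low and 456, 407 and 459 RPKM in VCAM1-negative libraries. The 3 gates do not overlap and fall in the order of VCAM1, and the same holds for Cd81. How many of all genes do so was not counted. Pair by pair, 13.1% of all genes were lower without overlap in VCAM1-low than in VCAM1-high cells. For VCAM1-negative below VCAM1-low cells the share was 5.1%. For Cd9 the VCAM1-negative minus VCAM1-high log2 difference was -0.39 ± 0.20 (SE; limma adjusted p = 0.797). Tspan3 stood at 141, 162 and 169 RPKM in VCAM1-high, 119 and 137 RPKM in VCAM1-low and 98.8, 128 and 129 RPKM in VCAM1-negative libraries. Its difference was -0.41 ± 0.17 (SE; limma adjusted p = 0.705).

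Cd63, Cd200, Cd9, Cd81 and Tspan3 fell in the order VCAM1-high, VCAM1-low, VCAM1-negative within both replicate numbers that have every gate, as did 14.1% of all genes. This is a description of 6 libraries. Neither comparison with VCAM1-low called a member, and neither called any gene of the table (0%). In these comparisons 3 members each did not overlap, against 13.1% of genes for VCAM1-low below VCAM1-high and 5.1% for VCAM1-negative below VCAM1-low. Cd63 was among the latter, with both VCAM1-low libraries above all VCAM1-negative ones at a log2 difference of -0.41 ± 0.30 (SE), not called.

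**Figure D2:**
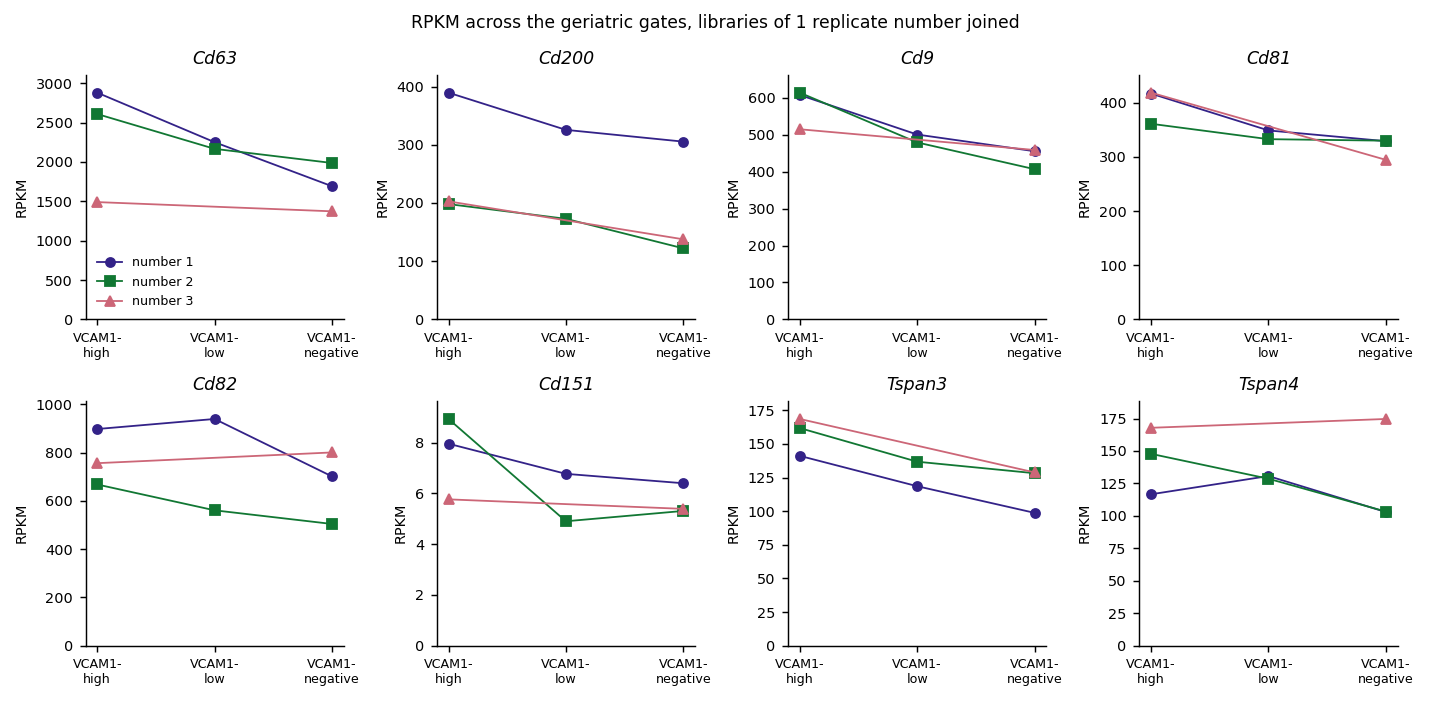
RPKM of the abundant members in the 8 geriatric libraries by VCAM1 gate, with lines joining libraries of the same replicate number and linear axes from 0. Cd200 falls from VCAM1-high to VCAM1-negative along each line, and the number-1 line lies above the other 2. Of all genes tested, 30.6% are lower in VCAM1-negative than in VCAM1-high cells within each number.

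Markers of muscle fibres moved with the VCAM1-negative gate. The summed RPKM of 11 mature muscle fibre markers was 706, 7307 and 5706 in VCAM1-negative libraries against 56.6 to 347 in the other 8, with the actin gene Acta1 at 280, 3040 and 2254 RPKM against 15.4 to 109. Defining markers of the cell types removed in the sort were still present. Ptprc, the gene of CD45, reached 3.30 RPKM, Pecam1, the gene of CD31, 20.5 RPKM and Ly6a, the gene of Sca-1, 66.3 RPKM. The 10 fibro-adipogenic markers, among them Ly6a, summed to 432 to 1179 RPKM over the 11 libraries. The part of these transcripts in the members' differences was not tested. In bulk libraries, fewer cells of a type and less RNA per cell cannot be told apart.

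Against middle-aged cells, Cd81 fell in each gate in at least 1 fit. It stood at 679, 532 and 575 RPKM in middle-aged replicates 1 to 3, at 417, 361 and 419 RPKM in VCAM1-high libraries, 349 and 333 RPKM in VCAM1-low and 329, 330 and 295 RPKM in VCAM1-negative libraries. All 8 geriatric libraries lie below all 3 middle-aged ones. Averaged over the gates, the geriatric minus middle-aged log2 difference was -0.75 ± 0.13 (SE; 95% interval -1.04 to -0.47; limma adjusted p = 0.00715). It stayed called in every setting tried, with limma adjusted p of 0.00179 to 0.0374.

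By gate, the log2 difference of Cd81 from middle-aged cells was -0.57 ± 0.16 in VCAM1-high, -0.79 ± 0.17 in VCAM1-low and -0.90 ± 0.16 in VCAM1-negative cells (SE), with limma adjusted p of 0.126, 0.0381 and 0.00921. The VCAM1-negative call held in every setting tried (0.00182 to 0.0392). The VCAM1-low call was lost in 7 of 11 omissions of a single library, with limma adjusted p up to 0.312 without VCAM1-low replicate 2. VCAM1-high and middle-aged libraries of the same number correlated at 0.211 to 0.554 in their deviations, although VCAM1-high replicate 1 was nearer to middle-aged replicate 2 (0.331). With the block the VCAM1-high difference had limma adjusted p = 0.0355, in a fit that called 6.98% of all genes. That call ended in 8 of 11 single omissions, at up to 0.204 without VCAM1-high replicate 2. The 3 gates share the middle-aged libraries, and the differences between gates in Cd81 did not pass the test (VCAM1-negative minus VCAM1-high -0.33 ± 0.16, SE; limma adjusted p = 0.770).

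Tspan3, a widely expressed tetraspanin, was the other member called in the geriatric mean. It stood at 229, 191 and 200 RPKM in middle-aged replicates 1 to 3, and all 8 geriatric libraries (98.8 to 169 RPKM) lie below them. The geriatric minus middle-aged log2 difference was -0.63 ± 0.14 (SE; 95% interval -0.94 to -0.32; limma adjusted p = 0.0177). The call was lost without middle-aged replicate 1 (0.0776) or replicate 3 (0.0585). In VCAM1-negative cells alone Tspan3 fell by 0.80 ± 0.17 on the log2 scale (SE; limma adjusted p = 0.0166, and 0.0549 without middle-aged replicate 1).

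Summed mural, erythroid and stem cell surface markers did not overlap between middle-aged cells and the lower gates. The same sums did overlap between middle-aged and VCAM1-high cells. Fibro-adipogenic, endothelial and Schwann cell sums overlapped between middle-aged cells and every gate. No sum was tested. The summed RPKM of 9 mural and smooth muscle markers ran from 179 to 491 at middle age, from 94.1 to 207 in the VCAM1-high gate and from 67.8 to 157 over the libraries of the lower gates. Erythroid markers (4 genes) summed to 5.77 to 165 RPKM at middle age, 14.0 to 488 RPKM in VCAM1-high, 524 and 650 RPKM in VCAM1-low and 194 to 650 RPKM in VCAM1-negative libraries. The 13 stem cell surface markers summed to 2248 to 2857 RPKM at middle age, 1754 to 2761 RPKM in VCAM1-high, 1758 and 1800 RPKM in VCAM1-low and 1342 to 1821 RPKM in VCAM1-negative libraries. Their part in the falls of Cd81 and Tspan3 was not tested.

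The calls of members against middle-aged cells stand on a high background. Of all genes, 15.8% were called in the geriatric mean (7.81% as lower), 14.4% in VCAM1-negative (7.38% as lower), 4.11% in VCAM1-low and 0.605% in VCAM1-high cells, each against middle-aged cells. Members called were 2 of 10, 2 of 10, 1 of 10 and 0 of 10 in the same order, all lower. Non-overlapping lower groups were found for 2 members in the geriatric mean (4.95% of all genes), 5 in VCAM1-negative (20.3%), 3 in VCAM1-low (24.9%) and 2 in VCAM1-high cells (6.36%). Across the 4 groups at once, the limma F test called Cd81 (adjusted p = 0.0345) in a fit that called 3.32% of all genes. It lost this call in 8 of 11 single omissions.

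Cd82, Cd151 and Cd9 were lower without overlap in VCAM1-negative against middle-aged cells, but were not called in the fit of all 11 libraries without a block. Cd82 was 1258, 1177 and 866 RPKM in middle-aged cells, 668 to 897 RPKM in VCAM1-high, 561 and 939 RPKM in VCAM1-low and 504 to 800 RPKM in VCAM1-negative cells. Of the 3 gates, VCAM1-negative alone lies wholly below the middle-aged libraries, at a log2 difference of -0.73 ± 0.25 (SE; limma adjusted p = 0.0740). Cd151 was 7.53 to 11.4 RPKM in middle-aged cells and 5.31 to 6.40 RPKM in VCAM1-negative cells, at -0.67 ± 0.21 (SE; limma adjusted p = 0.0552). Cd9 was 787, 676 and 466 RPKM in middle-aged replicates 1 to 3, the last just above the highest VCAM1-negative library (459 RPKM), at -0.51 ± 0.20 (SE; limma adjusted p = 0.0983). Cd9 was called without the 3 number-3 libraries (-0.76 ± 0.19, SE; limma adjusted p = 0.0460) and without middle-aged replicate 3 alone (0.0417), and Cd151 without VCAM1-high replicate 3 (0.0443). In the geriatric mean Cd82 and Cd151 were called without VCAM1-low replicate 1 (limma adjusted p = 0.0377 and 0.0447).

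Cd63 and Cd200 did not pass the test against middle-aged cells. Cd63 was 2727, 2228 and 1661 RPKM in middle-aged replicates 1 to 3, and the geriatric mean differed by -0.10 ± 0.23 on the log2 scale (SE; 95% interval -0.59 to 0.40; limma adjusted p = 0.782). Cd200 was 204, 246 and 158 RPKM in middle-aged replicates, and the geriatric mean differed by 0.12 ± 0.33 (SE; 95% interval -0.59 to 0.84; limma adjusted p = 0.815). Both genes overlap between middle-aged cells and each gate, and the Cd200 interval is wide on both sides of 0. In VCAM1-negative against middle-aged cells the differences were -0.38 ± 0.27 for Cd63 and -0.21 ± 0.39 for Cd200 (SE; limma adjusted p = 0.348 and 0.737).

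**Figure D3:**
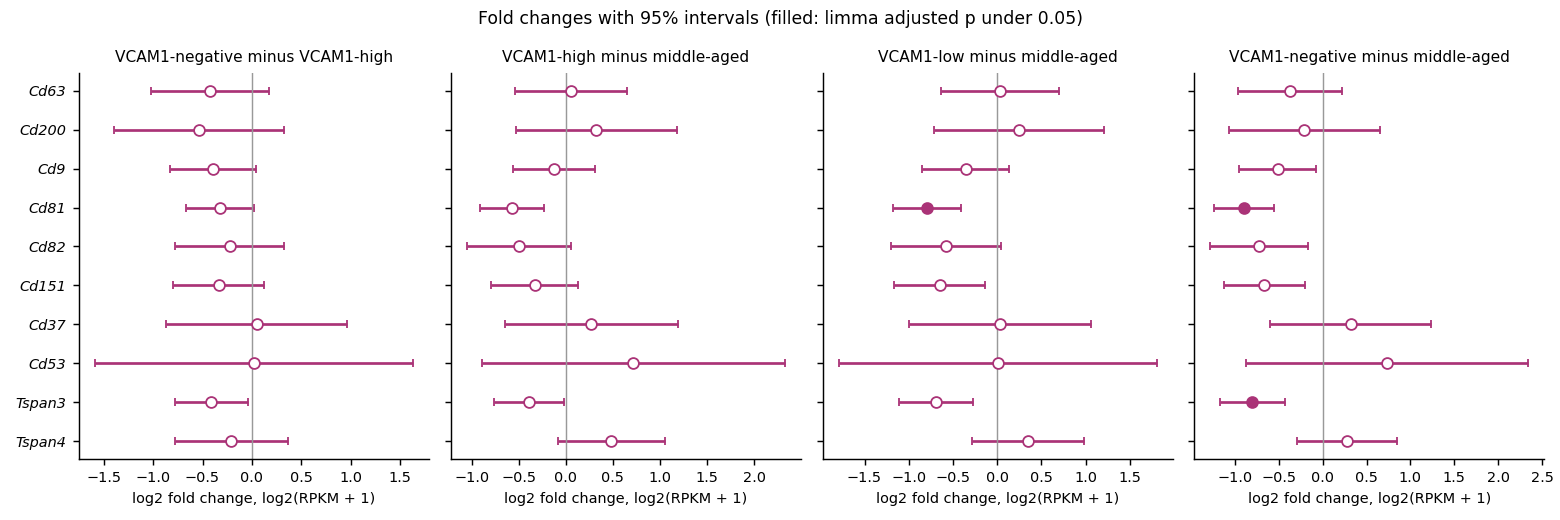
Log2 differences of the 10 genes from the limma fit on log2(RPKM + 1), with 95% intervals, in panels for VCAM1-negative minus VCAM1-high and for each gate minus middle-aged cells; filled points pass an adjusted p of 0.05 over all genes. Cd81 passes for VCAM1-low and VCAM1-negative against middle-aged cells and Tspan3 for VCAM1-negative, while the intervals of Cd63 and Cd200 include 0 in all 4 panels, whose axes differ in range.

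Tspan4 took the opposite sign to Tspan3. It was 138, 80.7 and 94.1 RPKM in middle-aged cells, 117, 148 and 168 RPKM in VCAM1-high, 131 and 129 RPKM in VCAM1-low and 103, 103 and 175 RPKM in VCAM1-negative cells. The groups overlap and the geriatric mean differed by 0.37 ± 0.22 on the log2 scale (SE; limma adjusted p = 0.250). The ratio of Tspan4 to Tspan3 was 0.423 to 0.602 in middle-aged libraries and 0.806 to 1.36 in the 8 geriatric ones, without overlap. Tspan3 by itself already separates these libraries, and how many other gene pairs do so was not counted. The ratio of Cd9 to Cd81 overlapped, with 0.810 to 1.27 at middle age against 1.23 to 1.70 in geriatric libraries. The ratios of Cd63 to Cd9, Cd63 to Cd81 and Cd82 to Cd9 overlapped as well. A ratio shows that a pair changed unequally and not which gene moved.

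The leukocyte tetraspanins Cd53 and Cd37 were highest in the number-3 libraries of every group that has one. Cd53 was 0.294, 0.0160 and 1.90 RPKM in middle-aged replicates 1 to 3, 0.0357, 0.514 and 9.83 RPKM in VCAM1-high, 0.199 and 1.05 RPKM in VCAM1-low and 1.05, 1.38 and 2.62 RPKM in VCAM1-negative libraries. Cd37 passed the filter only through VCAM1-high replicate 3 (2.41 RPKM) and VCAM1-negative replicate 3 (1.13 RPKM), and its other 9 libraries were at 0 to 0.652 RPKM. Ptprc and Lyz2, a lysozyme gene of myeloid cells, had the same 3 highest libraries in the same order as Cd53 and Cd37: VCAM1-high replicate 3, VCAM1-negative replicate 3 and middle-aged replicate 3. Lyz2 was 591, 174 and 95.5 RPKM there and 0.426 to 53.7 RPKM in the other 8. Neither tetraspanin was called in any comparison.

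**Figure D4:**
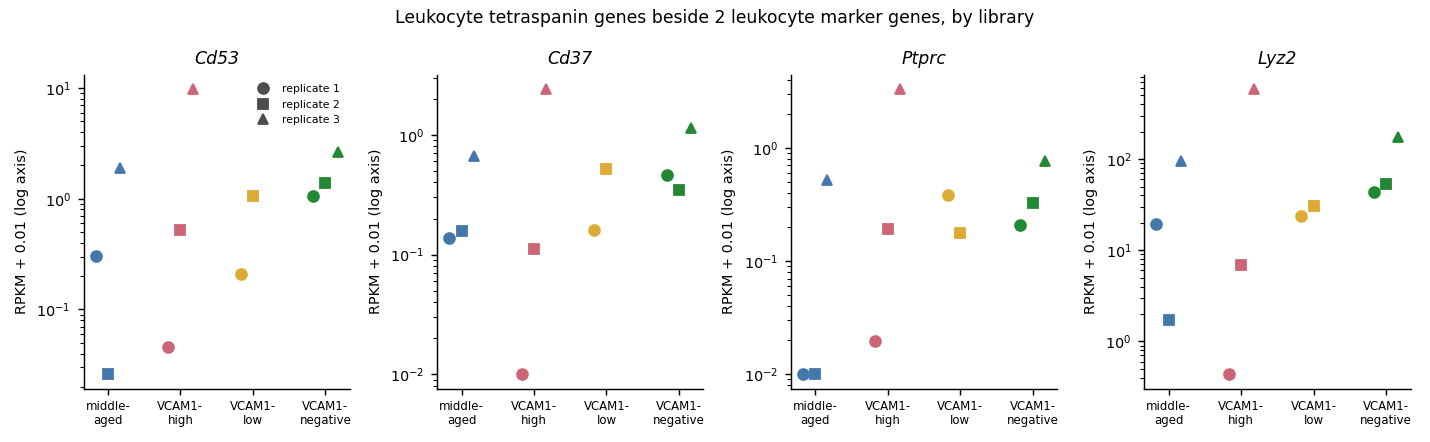
RPKM + 0.01 of Cd53, Cd37, Ptprc and Lyz2 on log axes in the 11 libraries, coloured by group with a shape for each replicate number. In each gene the number-3 libraries of VCAM1-high, VCAM1-negative and middle-aged cells are the 3 highest, in that order.

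Receptors for CD200 were low in these libraries. Cd200r1 reached 0.706 RPKM and Cd200r4 0.425 RPKM, both in VCAM1-high replicate 3, which also has the highest Ptprc and Lyz2. Cd200r2 and Cd200r3 stayed at or below 0.0413 and 0.0261 RPKM. None of the 4 passed the filter for testing, and of the list of CD200 receptors and signalling genes the 3 that were tested were not called without the block. With the block in 11 libraries 1 of them, Rasa1, was lower in VCAM1-negative than in middle-aged cells by 0.54 ± 0.15 (SE; limma adjusted p = 0.0269), between groups that replicate numbers did not pair. That fit called 31.6% of all genes in this comparison, 17.3% as lower.

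Several tetraspanins outside the 10 had larger fitted differences, which were not tested against those of the members. Of 22 listed genes 15 were tested, and in VCAM1-negative against middle-aged cells 5 were called lower and 1 higher (7.38% and 7.06% of all genes), with a median log2 difference of -0.34 against -0.02 over all genes. Tspan12, a co-receptor component of Norrin signalling, was 44.9 to 66.2 RPKM in middle-aged cells, 18.1 to 28.9 RPKM in VCAM1-high, 14.8 and 21.5 RPKM in VCAM1-low and 13.9 to 17.0 RPKM in VCAM1-negative cells. It fell by 1.84 ± 0.23 (SE; limma adjusted p = 0.00282), and the middle-aged libraries lie above all others. Tspan18, a regulator of store-operated calcium entry in endothelial cells, was 2.89 to 7.50 RPKM in middle-aged and 0.614 to 1.09 RPKM in VCAM1-negative cells, a fall of 1.67 ± 0.31 (SE; limma adjusted p = 0.0104).

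Tspan5, a tetraspanin that directs the protease ADAM10, fell by 0.98 ± 0.19 on the log2 scale (SE; limma adjusted p = 0.0124), Tspan6 by 1.57 ± 0.33 (0.0170) and Tspan7 by 0.72 ± 0.19 (0.0316). Tspan33 rose by 0.94 ± 0.27 (SE; limma adjusted p = 0.0429), from 0.933 to 3.04 RPKM in middle-aged to 3.34 to 5.35 RPKM in VCAM1-negative cells. Without the 3 number-3 libraries 3 of 13 tested genes were lower (Tspan12, Tspan18 and Tspan5), against 3.06% of all genes lower and 4.34% higher, and Tspan13 took the place of the higher one. Tspan13 was 56.6 RPKM in middle-aged replicate 3, where 11 endothelial markers summed to 427 RPKM against 22.8 to 195 in the other 10 libraries, and 1.10 and 3.36 RPKM in the other 2 middle-aged libraries. With the block among the geriatric libraries, Tspan6, Tspan12 and Tspan5 were also lower in VCAM1-negative than in VCAM1-high cells, by 1.02 ± 0.12, 0.68 ± 0.13 and 0.61 ± 0.13 (SE; limma adjusted p = 0.0131, 0.0373 and 0.0459). That fit called 4.42% of all genes, 3.43% as lower, and single omissions were not tried in it for these genes. Without the block 0 of 15 were called in VCAM1-negative against VCAM1-high cells.

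**Figure D5:**
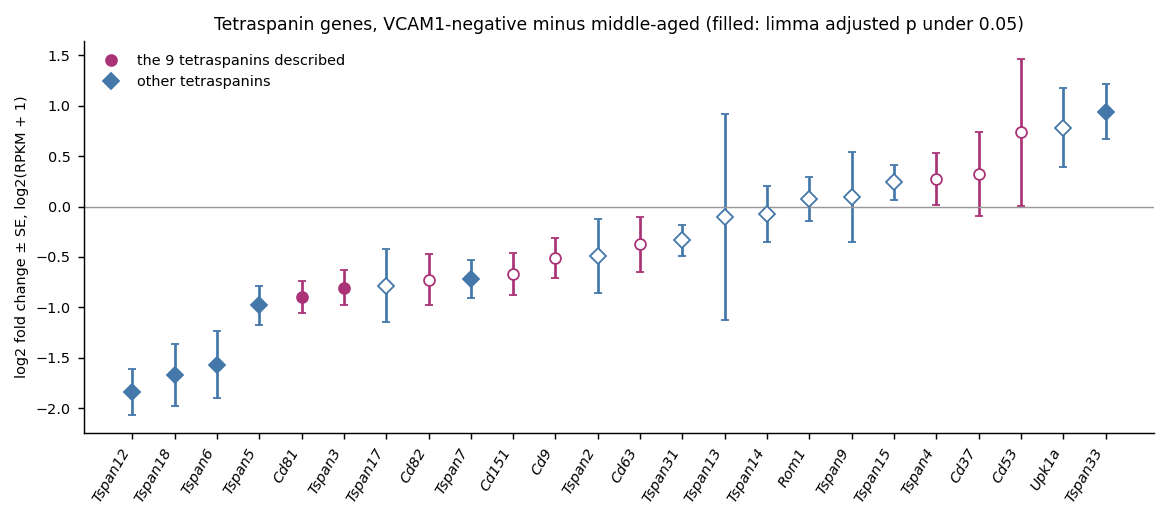
Log2 differences of VCAM1-negative minus middle-aged cells for the 24 tested tetraspanins, with SE; circles are the 9 described here, diamonds the other 15, and filled points pass an adjusted p of 0.05 over all genes. Tspan12, Tspan18 and Tspan6 lie lowest against middle-aged cells, below Cd81 and Tspan3.

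Among proteins that tetraspanins bind, genes moved in both directions. Of 15 tested partners 3 were called higher and 4 lower in VCAM1-negative against middle-aged cells (7.06% and 7.38% of all genes), with a median log2 difference of -0.35. Icam1, a ligand of leukocyte integrins, was 20.9 to 42.3 RPKM in middle-aged and 70.2 to 114 RPKM in all geriatric libraries, a rise of 1.72 ± 0.25 (SE; limma adjusted p = 0.00432). It was also called in VCAM1-high cells, at 1.52 ± 0.25 (limma adjusted p = 0.0266). Hbegf, a growth factor precursor that binds CD9, rose by 0.79 ± 0.18 (SE; limma adjusted p = 0.0217), and Itga3, a laminin-binding integrin chain, by 1.04 ± 0.29 (0.0378).

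Itgb1 and Itga7, the chains of the main laminin receptor of muscle stem cells, fell. Itgb1 was 190 to 201 RPKM in middle-aged and 110 to 132 RPKM in VCAM1-negative cells, a fall of 0.72 ± 0.18 (SE; limma adjusted p = 0.0257), and Itga7 fell by 1.36 ± 0.39 (0.0426). Ptgfrn, a direct partner of CD9 and CD81, fell by 0.88 ± 0.26 (SE; limma adjusted p = 0.0436). Without the number-3 libraries 2 partners were higher (Icam1 and Hbegf) and 1 lower, Cd44, a hyaluronan receptor, so the calls of the 3 integrin genes and Ptgfrn ended. Of all genes, 4.34% were higher and 3.06% lower in that fit. With the block among geriatric libraries Cd44, Igsf8, another direct partner of CD9 and CD81, and Itga7 were lower in VCAM1-negative than in VCAM1-high cells by 0.81 ± 0.10, 0.70 ± 0.10 and 0.94 ± 0.17 (SE; limma adjusted p = 0.0143, 0.0188 and 0.0306). That blocked fit called 3.43% of all genes as lower, and single omissions were not tried in it for these genes.

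Lists for the compartments of CD63 and Tspan4 were read against the same shares of all genes, 7.38% lower and 7.06% higher. In VCAM1-negative against middle-aged cells, 1 of 17 tested vesicle formation genes was higher (Flot1, a lipid raft scaffold, by 0.92 ± 0.23, SE; limma adjusted p = 0.0265) and none lower, with a median of -0.02. Of 16 lysosomal membrane genes 1 was lower, the proton pump subunit Atp6v1a at -1.01 ± 0.20 (limma adjusted p = 0.0143), with a median of -0.04. Of 8 migrasome and retraction fibre genes 4 were lower and none higher: Cpq at -2.16 ± 0.40 (limma adjusted p = 0.0104), Pigk at -1.13 ± 0.26 (0.0208), Tspan18 and Itgb1. Of 11 myoblast fusion genes 2 were lower and none higher, Jam3, a junctional adhesion molecule, at -0.97 ± 0.27 (limma adjusted p = 0.0377) and Ptgfrn. Tspan18, Itgb1 and Ptgfrn were already counted in the lists of other tetraspanins or partners. All these lists were chosen with earlier results of these data known, so counts of called genes are no evidence about a list as a whole. Without the 3 number-3 libraries, genes called in these lists were 0 of 17 for vesicle formation, 0 of 16 for the lysosomal membrane, 2 of 7 lower for migrasomes and 1 of 10 lower for fusion. Of all genes, 3.06% were lower and 4.34% higher in that fit.

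Upstream sequence is shown for the 2 members called in the geriatric mean, as the 250 bases before the RefSeq-listed start in build GRCm38.p6, on the gene's strand. Capitals mark GC boxes (GGGCGG) and CCAAT boxes (CCAAT), searched on both strands. Cd81 lies at chr7:143052500-143052749 on the plus strand and holds 3 GC boxes, and Tspan3 at chr9:56161071-56161320 on the minus strand holds 1 CCAAT box. At least 1 GC box was present in 32.7% and at least 1 CCAAT box in 33.8% of 32851 promoters of the same length.
Cd81 upstream: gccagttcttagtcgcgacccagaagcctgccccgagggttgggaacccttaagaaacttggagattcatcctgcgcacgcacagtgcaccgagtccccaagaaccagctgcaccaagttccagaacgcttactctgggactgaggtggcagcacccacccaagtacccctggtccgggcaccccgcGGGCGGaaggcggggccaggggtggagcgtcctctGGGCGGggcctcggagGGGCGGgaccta
Tspan3 upstream: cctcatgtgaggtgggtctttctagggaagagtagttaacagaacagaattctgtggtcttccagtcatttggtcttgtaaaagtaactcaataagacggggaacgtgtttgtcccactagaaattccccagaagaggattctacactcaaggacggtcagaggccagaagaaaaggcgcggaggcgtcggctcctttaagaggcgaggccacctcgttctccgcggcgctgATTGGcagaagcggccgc

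Profiles most like that of Cd63 were found by the root mean square of centred log2 differences over 11 libraries, among 7289 genes with a mean of at least 5 RPKM. They belonged to Lsm8 (0.0961), Lsm5 (0.113), Tm2d1 (0.116), Wbp4 (0.118) and Rp9 (0.125), where the median over all candidates was 0.456. Among the members Cd9 was nearest to Cd63, at place 380 (0.256), and Cd200 stood at place 3701. The genes nearest to Cd200 were Clybl (0.232), Hspd1 (0.244), Tmeff2 (0.245), Chordc1 (0.251) and Pold4 (0.253), against a median of 0.606. Predicted genes named Gm or ending in Rik and sex-linked genes were not among the candidates. These values describe 11 libraries that differ in age, depth, gate and replicate number, whose part in the likeness was not tested.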

How the data were processed

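Per the labels' protocols, RNA of sorted cells was amplified with the SMART-Seq v4 kit, which does not mark strand, and sequenced as paired ends. Tools listed in the submitters' processing notes are STAR 2.7.5b, Bowtie2 2.1.0, cutadapt 3.1 and SAMtools 0.1.19, with build GRCm39. The authors deposited RPKM values. The sources used here do not state how reads were counted, nor with which gene models and lengths.

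The 11568 of 20640 genes reaching 1 RPKM in a minimum of 2 libraries were analysed as log2(RPKM + 1) in 1 limma 3.58.1 model (R 4.3.3) with 4 group means and a variance trend. A fold change on this scale understates changes of low genes. P-values were adjusted over all genes tested by Benjamini and Hochberg, and a gene was called at adjusted p under 0.05. Tables were handled with Python 3.11.15 and pandas 2.3.3. All 10 members passed the filter, Cd37 through 2 libraries. The fit without a block was tested on simulated libraries that varied independently of each other. Libraries that deviate together and the blocked fits were not simulated.

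Members and gene lists were chosen with earlier results of these data known. Named genes are all members, Vcam1, Pax7, selected cell type markers, up to 4 called genes per list and comparison, and the 5 nearest profiles of Cd63 and Cd200. Tspan7, Tspan33, Itga7 and Ptgfrn fall outside the 4 per list in some comparisons and were named after their values were seen. Alternatives were a replicate block, another pseudocount, other filters, rescaling, no variance trend, only the groups compared, and leaving out single libraries. The number-3 libraries were left out as an alternative chosen after seeing the data.

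The labels do not say what replicate numbers share. Deviations of same-number libraries correlated above 0.1 in all 7 geriatric pairs and in the 3 pairs of VCAM1-high with middle-aged libraries (0.211, 0.332 and 0.554), so numbers were taken to pair these groups, from the data alone. Between VCAM1-high and middle-aged libraries the different-number pairs ran from -0.483 to 0.331, and VCAM1-high replicate 1 correlated better with middle-aged replicate 2 (0.331) than with replicate 1 (0.211). Pairs of the other gates with middle-aged libraries did not all reach 0.1. Because strand is not marked, reads of Cd9, Cd81, Cd82, Cd151, Cd37 and Tspan4 cannot be told apart from those of genes on the opposite strand that overlap them in GENCODE vM21. Coding sequences came from GENCODE vM21, and upstream sequences from RefSeq, where all 10 members matched.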

Additional observations from a re-analysis of the deposited data

How the results depend on the processing

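Settings that changed which members were called were mainly the replicate block and the omission of libraries. With the block in 11 libraries, the count of called members went from 0 to 1 in VCAM1-high minus middle-aged, from 1 to 3 in VCAM1-low, from 2 to 5 in VCAM1-negative, from 2 to 4 in the geriatric mean and from 1 to 3 in the F test. In the same order, the blocked fit called 6.98%, 15.8%, 31.6%, 30.9% and 17.5% of all genes. Without the block these shares were 0.605%, 4.11%, 14.4%, 15.8% and 3.32%. Replicate numbers did not pair VCAM1-low or VCAM1-negative with middle-aged libraries by the check, so those blocked counts of members are given only here. With the block in 8 geriatric libraries VCAM1-negative minus VCAM1-high went from 0 to 1, Cd200. The block changed no other call of a member. Without a filter on low values the count was 0 in VCAM1-low minus middle-aged and 0 in the F test. Without the number-3 libraries it was 0 in both and rose from 2 to 3 in VCAM1-negative minus middle-aged, where Cd9 was added, with only the 2 groups compared 0 in VCAM1-low, and with median-ratio scaling 2 in the F test. Leaving out 1 library gave 0 to 1 members in VCAM1-low minus middle-aged, 1 to 3 in VCAM1-negative minus middle-aged, 1 to 4 in the geriatric mean and 0 to 1 in the F test. The cause of these changes was not tested.

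Directions of uncalled members turned where differences were small. In VCAM1-low minus VCAM1-high, median-ratio scaling gave log2 differences of 0.083 for Cd63, 0.025 for Cd200 and 0.020 for Cd82, the block gave 0.078 (11 libraries) and 0.15 (8) for Cd37 and 0.049 (8) for Tspan4, a pseudocount of 0.1 gave 0.080 for Cd37, and leaving out the number-3 libraries gave 0.32 for Cd53. In VCAM1-negative minus VCAM1-low, Cd151 was 0.097 and 0.077 with the block in 11 and 8 libraries, 0.0084 with equal RPKM sums and 0.013 without the number-3 libraries, and Cd37 was -0.030 and -0.099 with the block. Against middle-aged cells, Cd63 was -0.020 in VCAM1-high with median-ratio scaling, and -0.18 with the block and -0.16 without the number-3 libraries in VCAM1-low. Tspan4 in VCAM1-negative cells was -0.033 without the number-3 libraries.

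With single libraries left out, differences that changed sign ranged as follows. In VCAM1-negative minus VCAM1-high they ran from -0.27 to 0.18 for Cd37 and from -0.64 to 1.06 for Cd53. In VCAM1-low minus VCAM1-high they ran from -0.31 to 0.16 for Cd63, -0.53 to 0.38 for Cd200, -0.45 to 0.29 for Cd82 and -1.37 to 0.32 for Cd53. In VCAM1-negative minus VCAM1-low they ran from -0.52 to 0.23 for Cd82, -0.22 to 0.18 for Cd151, -0.21 to 0.013 for Tspan3 and -0.33 to 0.051 for Tspan4. In VCAM1-high minus middle-aged they ran from -0.14 to 0.34 for Cd63, -0.34 to 0.040 for Cd9 and -0.32 to 1.37 for Cd53. In VCAM1-low minus middle-aged they ran from -0.16 to 0.20 for Cd63, -0.21 to 0.70 for Cd200, -0.16 to 0.23 for Cd37 and -0.38 to 0.45 for Cd53. Cd200 in VCAM1-negative minus middle-aged ran from -0.62 to 0.039. In the geriatric mean Cd63 ran from -0.29 to 0.070 and Cd200 from -0.047 to 0.27.

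Limits: groups hold 2 or 3 libraries, RPKM are not counts, and depth is estimated, with 63.4% to 71.2% of low values within 0.1 of a whole read. Cd37 reached 1 RPKM in 2 of 11 libraries and Cd53 in 6, and their lowest values lie at or below the level of a few reads.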
